A study of Mus musculus with 8 samples.

Results

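Of 109822 accessible regions on mouse chromosomes 1 to 19, 363 held an ATAC-seq peak in both libraries of the Flt3-ITD single genotype and in none of the other 6 libraries, a share of 0.331%. ATAC-seq uses a transposase that inserts sequencing adapters where DNA is accessible, so a peak marks a stretch of open chromatin. The peaks of all 8 libraries were joined wherever they overlapped by at least 1 bp, and a library called a region when 1 of its peaks lay inside. The calls themselves chose the 363 regions, so their number and everything measured on them in the Flt3-ITD libraries is a description without a test.

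The cells were c-Kit+ bone marrow cells, 50000 per library, collected 4 weeks after PIpC, the agent that induces the Mx1-Cre recombinase, and each genotype had 2 libraries. Flt3-ITD mice carried Mx1-Cre by their titles, and both title and genotype name the internal tandem duplication of Flt3. Mice of the Smc3-deleted Flt3-ITD genotype carried Mx1-Cre, Flt3-ITD and a Smc3 deletion, which the genotype gives as Smc3 fl/del and the title as heterozygous. Smc3 del/+ mice carried Mx1-Cre and had lost 1 Smc3 allele. Control mice were Smc3 fl/+ without Mx1-Cre, so Flt3-ITD and control differ in the recombinase as well as in Flt3. The free-text notes attached to Smc3 del/+ and to Flt3-ITD libraries are swapped relative to titles and genotypes, and if the notes were right the 363 regions would belong to Smc3 del/+ cells. The state of the Smc3 locus in the Flt3-ITD mice, the sex and age of the animals, and whether the libraries of a genotype came from separate animals are not given in the labels.

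Flt3 is a receptor tyrosine kinase of early blood progenitors, and the internal tandem duplication makes it signal without its ligand, through STAT5 among other routes. Flt3-ITD is frequent in acute myeloid leukemia. c-Kit marks hematopoietic stem and progenitor cells, a mixture whose composition can differ between mice, and in bulk libraries a change in the cells present and a change within cells cannot be told apart. Smc3 is part of cohesin, a ring-shaped complex that extrudes chromatin loops and pairs sister chromatids. No gene or sequence annotation for the mm9 build of the peak lists was used here, so regions are given by mm9 position and the c-Kit+ identity was not checked against marker loci.

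The Flt3-ITD lists held 67152 and 64218 peaks, the Smc3-deleted Flt3-ITD lists 80698 and 80316, the Smc3 del/+ lists 61953 and 63401, and the control lists 74525 and 64777. No read numbers were given, so the depth behind a call is unknown, and absence means that no peak was called and not that the DNA was closed. The Smc3-deleted Flt3-ITD libraries stood apart on the sex chromosomes, with 294 and 282 peaks on Y against 84 to 98 in the other 6 and 2.60% and 2.72% of peaks on X against 3.49% to 3.79%.

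Regions called in the Flt3-ITD single genotype alone were the fewest of the 4 genotype-alone sets. Both Flt3-ITD libraries shared 49599 regions on these chromosomes, of which 35155 (70.9%) were called in all the other 6 libraries and 363 (0.732%) in none. The same rule gave 4975 regions for Smc3-deleted Flt3-ITD (4.53%), 629 for Smc3 del/+ (0.573%) and 692 for control (0.63%). Leaving out a library drops a condition of the rule, so a higher number is largely built in, and all 363 regions remained each time. The number was 2342 without Flt3-ITD replicate 1, 2801 without Flt3-ITD replicate 2 and 547 without Smc3-deleted Flt3-ITD replicate 1. Without any other single library it lay between 438 and 529. Without both Smc3-deleted Flt3-ITD libraries it was 1667.

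The 363 regions ranked low within the Flt3-ITD lists. Each peak carried the authors' score, and its percentile within its own list was used as a rank, where 50 is the middle of the list and a score of exactly 1, the highest value, stood at 84.0 in replicate 1 and 84.1 in replicate 2 because many peaks tied there. The median percentile was 18.3 in replicate 1 (interquartile range 8.22 to 27.5) and 15.8 in replicate 2 (8.04 to 26.6), a mean of 17.1 ± 1.78 (SD, n = 2). In 196 regions (54.0%) both libraries ranked the peak in the lowest 25% of their list, in 117 (32.2%) one library did, and in 50 (13.8%) neither did. Only 13 regions (3.58%) lay in the upper 50% of both lists. Genotype-alone regions ranked low in the other genotypes too, with median percentiles of 25.1 ± 0.624 for Smc3-deleted Flt3-ITD, 21.5 ± 1.25 for Smc3 del/+ and 19.1 ± 3.23 for control (SD, n = 2 each). Both Flt3-ITD values lay below both of Smc3-deleted Flt3-ITD and of Smc3 del/+, and control overlapped them, since its replicate 2 stood at 16.9. The lists differ in length and in the share of peaks tied at a score of 1, from 27.2% to 34.9%. Percentiles of different lists are therefore set side by side as a description only.

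**Figure D1:**
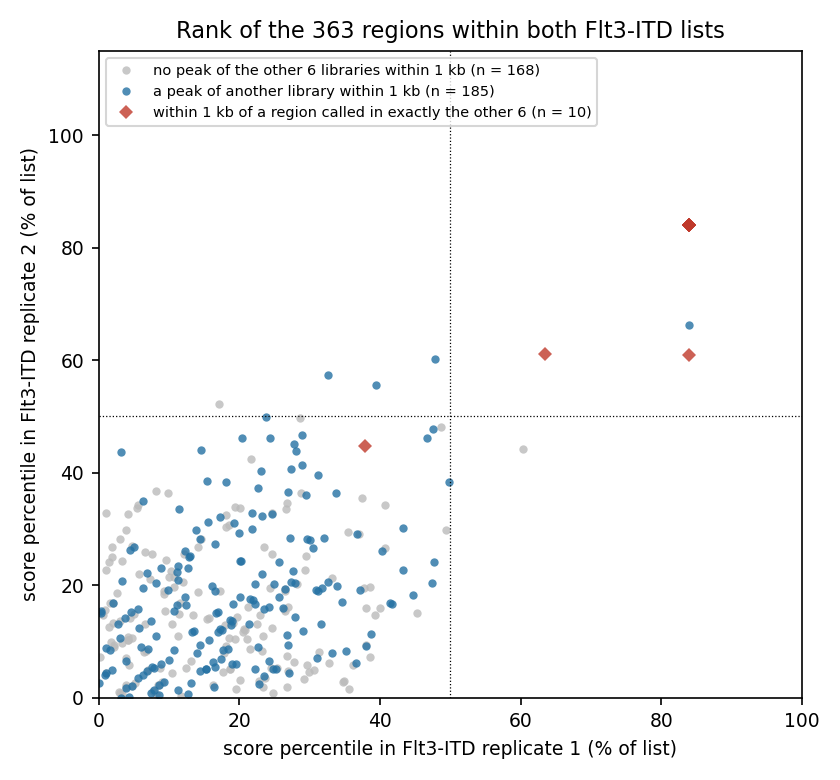
Score percentile of each of the 363 regions in Flt3-ITD replicate 1 (x axis, % of list) and replicate 2 (y axis, % of list), coloured by what lies within 1 kb. Most points sit in the lower left, 13 lie above 50 in both lists, and the 10 regions with the highest score in both libraries coincide at 84.0 and 84.1.

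The peaks of both Flt3-ITD libraries overlapped in every region by the rule, to a varying extent. In 355 of the 363 regions each library had a single peak. The peaks shared a median of 335 bp, from 1 to 1296 bp, and the shared stretch covered a median of 98.1% of the shorter peak, a share that is also high where a narrow peak lies inside a broad one. In 321 regions (88.4%) it covered at least 50% of the shorter peak, and in the other 42 the peaks overlapped by less. Their centres lay a median of 124 bp apart (interquartile range 44.75 to 251.25 bp, at most 723.5 bp). The ranks of the 2 libraries were related across the 363 regions (Pearson r = 0.64, Spearman rho = 0.34), given as a description, since the regions share the same libraries. Both coefficients include the 10 regions tied at the highest score, and neither was computed without them.

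Regions were a median of 755 bp wide, from 191 to 1676 bp. Median peak widths in the 8 lists were 406 to 434 bp. Peaks over 750 bp are called broad here and the others narrow, a cut chosen for description. In 202 of the 363 regions (55.6%) both Flt3-ITD peaks were narrow, in 120 (33.1%) one was broad, and in 41 (11.3%) both were. Broad peaks made up 24.8% of the regions in replicate 1 and 30.9% in replicate 2, beside 24.6% and 24.7% of all autosomal peaks of the same lists. Regions with 2 narrow peaks had a peak of another genotype within 1 kb in 61.9% of cases, and regions with 2 broad peaks in 34.1%. The rule removed any region that such a peak touched, and a broad region is touched more easily, so the contrast is a description and was not tested.

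Most of the regions lay beside accessible chromatin of the other genotypes. A peak of at least 1 of the other 6 libraries lay within 1 kb of 195 regions (53.7%), and the median distance between nearest edges was 286 bp for these 195 and 835 bp over all 363. The corresponding share was 18.1% for regions called in Smc3-deleted Flt3-ITD alone, 39.3% for Smc3 del/+ alone and 34.4% for control alone, with median distances over each whole set of 4652, 2028 and 2358.5 bp. In 76 of the 363 regions (20.9%) all the other 6 libraries had a peak within 1 kb, and in 168 (46.3%) none had. A further peak of Flt3-ITD itself lay equally close to 147 regions (40.5%). Because the sets were defined by calls, these differences between sets were not tested. The 6 lists searched also differ between sets, and those for Smc3-deleted Flt3-ITD leave out the longest lists. The same share over all autosomal regions is not given here, so 53.7% is not shown to be high.

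**Figure D2:**
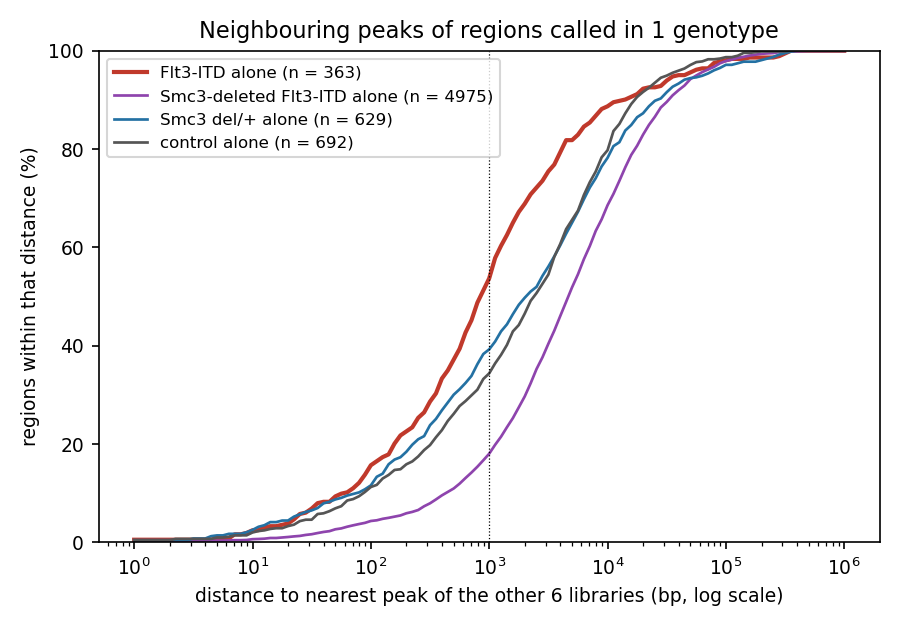
Share of regions (%) with a peak of any library outside the genotype within the distance on the x axis (bp, log scale), for regions called in Flt3-ITD alone and in each other genotype alone. At 1 kb, the dotted line, the curves stand at 53.7% for Flt3-ITD, 18.1% for Smc3-deleted Flt3-ITD, 39.3% for Smc3 del/+ and 34.4% for control.

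The regions that ranked highest by score were the ones most often found beside a peak of the other genotypes. Of the 13 regions in the upper 50% of both lists, 12 had a peak of another library within 1 kb, at a median distance of 180 bp. Of the 10 with a score of exactly 1 in both libraries, 7 had within 1 kb a region called in all the other 6 libraries and in neither Flt3-ITD library. These are pairs of neighbouring regions with opposite calls, 1 called in Flt3-ITD alone and 1 called in every other genotype. The opposite calls define the pairs, and a missing call does not show closed DNA. This comparison was chosen after the values were seen.

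The pair on chromosome 7 shows the layout. The Flt3-ITD region at chr7:74367111-74367546 held peaks of 413 and 434 bp in Flt3-ITD replicates 1 and 2. Its partner at chr7:74367554-74367978 held peaks of 258 to 416 bp in the other 6 libraries, all of them with a score of exactly 1. The nearest edges were 8 bp apart and the mean centres 404 bp apart. On chromosome 12 the Flt3-ITD region at chr12:116229020-116229371 lay 5 bp from chr12:116229376-116229850, with centres 406 bp apart. On chromosome 10 the region at chr10:89204101-89204474 lay 12 bp from chr10:89203377-89204089, with centres 463 bp apart. That no Flt3-ITD peak lay in a partner region, and no other peak in the Flt3-ITD region, follows from how the pairs were chosen. It is not a separate result.

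The other 4 such pairs were wider apart. The regions were chr13:89878635-89879496 at 235 bp from its partner, chr19:7094840-7095327 at 350 bp, chr11:69224039-69224524 at 444 bp and chr4:140344583-140344876 at 487 bp. The partners on chromosomes 11 and 19 were long, 1297 and 2576 bp, and the peaks of the separate libraries were spread along them.

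**Figure D3:**
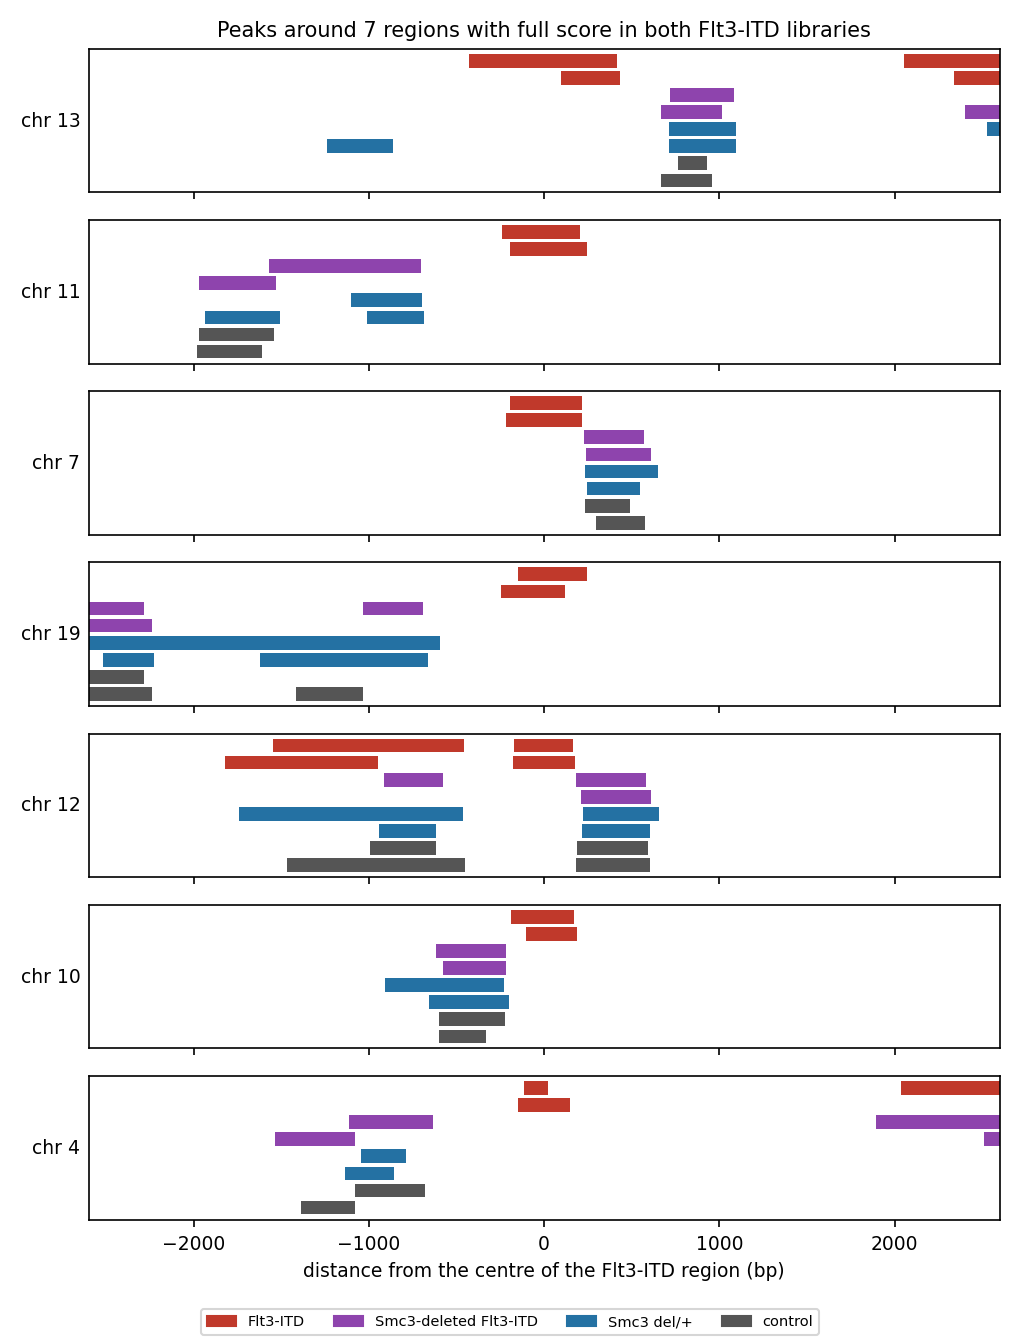
Called peaks of each library around the 7 regions with the highest score in both Flt3-ITD libraries that had a partner called in all the other 6, 1 panel per region, with distance from the centre of the Flt3-ITD region in bp on the x axis. Each bar is a peak, and rows run from the Flt3-ITD libraries at the top to the control libraries at the bottom. On chromosomes 7, 10 and 12 the peaks of all 6 other libraries stop at least 5 bp short of the Flt3-ITD region. The rule kept only regions that no such peak touched.

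Such pairs were not limited to Flt3-ITD. In total 10 of the 363 regions (2.75%) had a partner called in the other 6 libraries alone within 1 kb, at a median of 125.5 bp, and regions of that call pattern made up 0.423% of all autosomal regions. The equivalent counts were 13 of 4975 (0.261%) for Smc3-deleted Flt3-ITD, 21 of 629 (3.34%) for Smc3 del/+ and 10 of 692 (1.45%) for control. The matching call patterns made up 0.243%, 1.27% and 0.217% of all autosomal regions. These shares count the call pattern itself and not regions with such a neighbour, so they are no direct baseline for the shares with a partner. Among regions with a score of exactly 1 in both own libraries, 9 of 35 had such a partner for Smc3-deleted Flt3-ITD, 13 of 15 for Smc3 del/+ and 8 of 13 for control.

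The remaining 3 regions with the highest score in both libraries had other surroundings. At chr7:26004323-26005455, a region of 1133 bp and the widest of the 10, the nearest peaks of the other 6 libraries lay between 979 and 1079 bp away. At chr1:193246898-193247268 all the other 6 libraries had their nearest peak between 1316 and 1381 bp away, in a region that they alone called. The third, 721 bp wide on chromosome 18, had peaks of control replicate 1 at 214 bp and control replicate 2 at 125 bp, while the Smc3-deleted Flt3-ITD and Smc3 del/+ libraries had none within 1 kb.

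The next 10 regions by rank had mean percentiles below those of the first 10, and most again lay near a peak of another genotype. The region at chr2:118525763-118526146 stood at 84.0 in replicate 1 and 60.9 in replicate 2, 7 bp from a partner that the other 6 libraries alone called. The region at chr15:100292416-100292926 stood at 63.5 and 61.0, with such a partner at 296 bp. Those at chr5:140210678-140211047 and chr2:152479941-152480131 lay 70 and 87 bp from the nearest peak of another library. Near chr9:88443549-88444631 and chr7:150243077-150243547 all the other 6 libraries had a peak within 1 kb, at nearest 151 and 161 bp.

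For 2 of these 10 regions the nearby peaks came from the genotype that shares Flt3-ITD and from no other. At chr3:15179287-15179695, which stood at 32.6 and 57.4, Smc3-deleted Flt3-ITD replicates 1 and 2 had peaks 96 and 104 bp away, while the nearest peaks of the Smc3 del/+ and control libraries were 14571 to 14929 bp away. At chr5:124943391-124944334, which stood at 47.5 and 47.9, Smc3-deleted Flt3-ITD replicates 1 and 2 had peaks 106 and 71 bp away, and the Smc3 del/+ and control libraries had none closer than 2278 bp.

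At the other end were regions far from any accessible site of the other genotypes. In 41 regions (11.3%) the nearest peak of the other 6 libraries was over 10 kb away, and in 7 it was over 100 kb away. Regions over 10 kb away were 31.4% of the set for Smc3-deleted Flt3-ITD, 21.8% for Smc3 del/+ and 20.2% for control. The farthest 5 lay at chr15:16664878-16666147 (354519 bp), chr4:76095218-76096501 (320975 bp), chr8:49927903-49929200 (306300 bp), chr6:61955513-61955853 (283992 bp) and chr5:78184575-78185301 (254500 bp). Their percentiles ranged from 1.7 to 22.9 in replicate 1 and from 2.2 to 36.8 in replicate 2, so they were weak calls even where both libraries made them. One isolated region ranked higher: chr12:20821194-20822450, 1257 bp wide, stood at 48.7 and 48.2 and was at least 103841 bp from every peak of the other 6 libraries.

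Flanking peaks were counted in the 6 libraries outside the Flt3-ITD single genotype. The rule also used the calls of these libraries, since any of their peaks that touched a region removed it, so the counts hold only peaks that stopped short of the regions and are given as a description. Within 1 kb, Smc3-deleted Flt3-ITD replicates 1 and 2 had a peak at 38.3% and 39.1% of the 363 regions. Smc3 del/+ replicates 1 and 2 had one at 32.2% and 31.1%, and control replicates 1 and 2 at 34.7% and 33.9%. Both Smc3-deleted Flt3-ITD libraries lay above all 4 others, and the difference of means was 5.72 percentage points (38.7% against 33.0%). It was 5.85 percentage points within 5 kb and 4.48 within 10 kb. The planned exact two-sided permutation test had a smallest possible p of 0.0667 over 15 assignments, so it could not pass 0.05, and its outcome is not used. The Smc3-deleted Flt3-ITD lists were also the longest. With every list limited to its 61953 highest-scoring peaks, the shares were 35.3% and 35.0% for Smc3-deleted Flt3-ITD, 32.2% and 30.0% for Smc3 del/+ and 31.7% and 33.6% for control, and the difference was 3.24 percentage points. Around regions called in control alone, the Smc3-deleted Flt3-ITD replicates had 1 within the same distance at 21.6% ± 1.12, against 19.3% ± 0.307 for Flt3-ITD and 19.2% ± 1.23 for Smc3 del/+ (SD, n = 2 each). Around regions called in Smc3 del/+ alone the order was different, with 23.1% ± 0.112 for Smc3-deleted Flt3-ITD, 21.7% ± 1.24 for Flt3-ITD and 26.2% ± 5.51 for control (SD, n = 2 each), whose replicates stood at 30.0% and 22.3%.

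**Figure D4:**
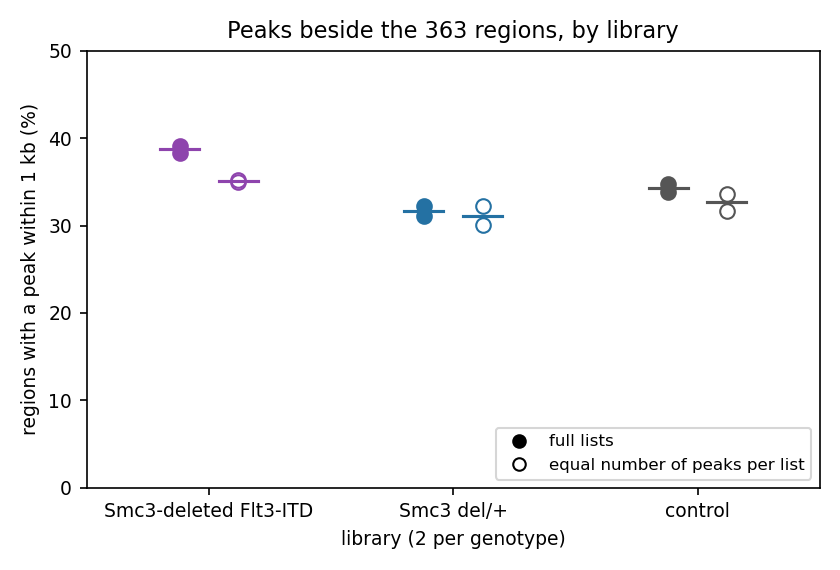
Share of the 363 regions (%) with a peak within 1 kb in each library of the other 3 genotypes, with full lists (filled) and with an equal number of peaks per list (open); each point is a library and each line the mean of 2. Both Smc3-deleted Flt3-ITD points lie above the 4 others in either form, by a smaller margin with equal lists.

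Regions just outside the rule had similar ranks. The 363 regions had median percentiles of 18.3 and 15.8 in Flt3-ITD replicates 1 and 2, against 19.7 and 18.3 for 630 regions that exactly 1 other library called as well. Smc3-deleted Flt3-ITD replicates 1 and 2 were the extra library for 155 and 144 of the 630, Smc3 del/+ replicates 1 and 2 for 60 and 54, and control replicates 1 and 2 for 137 and 80. The 3 longest lists gave the 3 highest counts, while the shortest list, Smc3 del/+ replicate 1, did not give the lowest. Whether list length sets these counts was not tested. In the extra library the peak ranked low as well, at median percentiles from 15.2 (control replicate 2) to 20.5 (Smc3 del/+ replicate 1). Regions called in Flt3-ITD replicate 1 alone numbered 2254 with a median percentile of 11.0, and those in replicate 2 alone 1802 with 11.2. The 363 regions, each merged from peaks of 2 libraries, had a median width of 755 bp, against 399 and 410 bp for the regions of a single replicate.

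**Figure D5:**
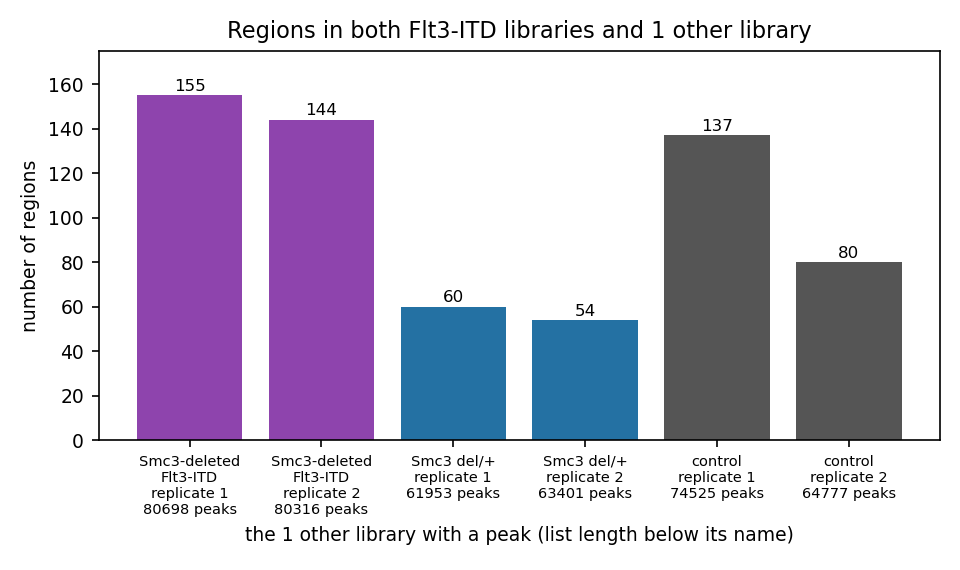
Number of regions that both Flt3-ITD replicates and exactly 1 other library called, by that library, with its list length under its name. The counts are 155 and 144 for Smc3-deleted Flt3-ITD, 60 and 54 for Smc3 del/+ and 137 and 80 for control, and the 3 longest lists have the 3 tallest bars.

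Accessibility shared with 1 further genotype, called in both its libraries and in none of the remaining 4, covered few of the 109822 autosomal regions. The counts were 975 for Smc3-deleted Flt3-ITD, 37 for Smc3 del/+ and 161 for control. The Smc3-deleted Flt3-ITD lists were the longest (80698 and 80316 peaks) and the Smc3 del/+ lists the shortest (61953 and 63401). The counts were not adjusted for list length, and the cause of their differences was not tested. Those shared with Smc3-deleted Flt3-ITD stood at median percentiles of 22.8 and 21.3 in Flt3-ITD replicates 1 and 2, those shared with Smc3 del/+ at 29.2 and 26.1, and those shared with control at 24.5 and 23.3.

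The 363 regions were scattered over all 19 autosomes, from 7 on chromosome 14 to 31 on chromosome 2. Chromosome 7 held 8.26% of them and 6.22% of all autosomal regions, and chromosome 14 held 1.93% and 3.99%. Neighbouring members on a chromosome were a median of 3.67 Mb apart, and 18 of 344 gaps were under 100 kb. The 363 regions fell into 317 windows of 1 Mb, of which 277 held 1, 35 held 2, 4 held 3 and 1 held 4.

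The window with 4 regions was chromosome 1 from 193 to 194 Mb, where 131 regions were called in any library. It held chr1:193246898-193247268 described above, chr1:193058346-193059481, chr1:193216078-193216762 and chr1:193757228-193757903. The last 3 had mean percentiles in the lower 50% of the list, and in 2 of them, at 193058346 and 193757228, the 2 Flt3-ITD peaks shared only 3.3% and 8.6% of the shorter peak. The windows with 3 were chromosome 2 from 72 to 73 Mb, chromosome 3 from 15 to 16 Mb, chromosome 11 from 69 to 70 Mb and chromosome 12 from 116 to 117 Mb, with 95, 56, 133 and 123 regions called in any library. In the window on chromosome 3, all 3 regions, at 15179287, 15202980 and 15333963, had a peak of another library within 1 kb. In that on chromosome 2, the regions at 72146998 and 72567035 were 6560 and 34007 bp from the nearest, and that at 72315662 had 1 at 591 bp, in Smc3 del/+ replicate 2. On chromosome 11, the regions at 69152860 and 69833214 had peaks of all the other 6 libraries within 1 kb. On chromosome 12, the region at 116721103 was 11541 bp from the nearest peak of another library and that at 116622825 was 211 bp from one in Smc3 del/+ replicate 1.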

How the data were processed

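The authors deposited 1 peak list per library, so replicates were not pooled. The value in each list is a score per peak, deposited between 0.99 and 1, whose meaning the labels do not state. Scores only ranked or filtered peaks of the same list. Bowtie and the mm9 build are named, per the submitters' processing notes. The peak caller, the transposase offset and the treatment of duplicates are not given there.

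Groups follow titles and genotype labels. All 557040 peaks were joined at 1 bp overlap, and regions on chromosomes 1 to 19 were kept. Coordinates are 1-based. Distances run between nearest edges, and touching regions are 1 bp apart. Named regions were the 20 highest by mean score percentile (ties by summed width), the 5 farthest from other libraries, and those in the 3 fullest 1 Mb windows, of which ties made 5. The members and lists were chosen with earlier results of these data known. The planned gene, cell type marker, motif and sequence steps were not run for want of a genome in the mm9 build. Replicates measure the spread between libraries, which may be technical. Joining and distances were tested on 4000 simulated regions, where all 201 with the pattern were found. The simulated regions lay farther apart than the pairs described above, so closely adjacent peaks were not covered. The tools were numpy 2.4.6, pandas 2.3.3 and matplotlib 3.10.9 under Python 3.11.15.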

Additional observations from a re-analysis of the deposited data

How the results depend on the processing

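The number of regions, 363, moved with most choices. It was 581 when peaks had to overlap by 50% of the shorter one, 576 with equal peak numbers per list (252 of the 363 among them, which is 69.4% of the 363 and 43.75% of the 576), 168 with no other peak allowed within 1 kb, and 157 with the upper 50% of every list, of which 13 were among the 363. It was 13 with the upper 50% in the Flt3-ITD lists alone, 629 with Flt3-ITD and Smc3 del/+ exchanged, and 1667 leaving out the Smc3-deleted Flt3-ITD genotype, an alternative added after the data were seen. It was 325 with peaks joined across 100 bp. Leaving out each library in turn gave 438 to 2801, always with all 363 among them, since each omission drops a condition of the rule. Median width, 755 bp, was 806 bp with equal peak numbers and 909.5 bp with no other peak within 1 kb. The cause of these shifts was not tested. The difference in nearby peaks, 5.72 percentage points, is a description and had the same sign in all 10 alternatives. It ranged from 3.24 with equal lists to 6.29 without control replicate 1. The alternatives reuse the same 363 regions, and the replicate block leaves the difference unchanged by construction. The shared sign is therefore not separate support. With the replicate block, which permutes within replicate numbers, the exact p was 0.111, the smallest that 9 assignments give, so it could not pass either. Replicate differences of different genotypes correlated between -0.010 and 0.0072 over regions, so the calls showed no pattern common to libraries of the same number. Calls alone cannot tell whether such libraries shared a batch. The planned comparison of windows for gene and motif content was not run. Read depth is unknown, so no limit of detection can be set.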

Other observations

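On the sex chromosomes, which were left out, 26 further regions had a peak in both Flt3-ITD libraries and in none of the other 6, of which 23 lay on X and 3 on Y.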
